A study of Mus musculus with 6 samples.

Results

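Carbonic anhydrases are zinc enzymes that interconvert carbon dioxide and bicarbonate, and so serve acid secretion, pH control and gas transport. The mammalian family has cytosolic, mitochondrial, secreted and membrane-bound members, which differ in speed and in the tissues that make them. In joint tissue, *Car2* is known for acid secretion by osteoclasts, *Car3* for its abundance in fat and slow muscle, and *Car9* and *Car12* for their link to low oxygen. The genes described here are the rows of the count table named *Car1*, *Car2*, *Car3*, *Car4*, *Car5b*, *Car8*, *Car9*, *Car12*, *Car13* and *Car14*, which are 10 of 55487 genes.

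Poly(A) RNA of knee joint cartilaginous tissue from mice at postnatal day 6 was sequenced in 3 *Hbb*-cKO libraries, labelled as a conditional deletion of *Hbb* in chondrocytes, and in 3 WT libraries. The study's methods describe a floxed allele that covers *Hbb-bs* and *Hbb-bt*, which encode adult β-globin, and its *Hbb*-cKO mice carry a *Col2a1*-driven Cre that tamoxifen activates in chondrocytes. The labels name neither the Cre line nor tamoxifen for the sequenced mice, and state for both groups only pathogen-free housing. The study calls its sequenced cartilage samples biologically independent. How many mice went into a library is not stated in what was used here.

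Total counts were 17405688 to 20969914 in *Hbb*-cKO and 16544800 to 17475496 in WT. Levels are CPM, counts scaled to the normalised library size, and differences are log2 fold changes of *Hbb*-cKO over WT from the quasi-likelihood test of edgeR, adjusted by Benjamini-Hochberg over the 17175 genes tested. The summed CPM of *Hbb-bs* and *Hbb-bt* was 4195 to 5444 in *Hbb*-cKO and 6912 to 16810 in WT, so the targeted genes were lower in each *Hbb*-cKO library but still present. The sum of red cell precursor genes, given with *Car2* below, was also lower in *Hbb*-cKO without overlap. The part of red cell RNA in the 2 globin genes was not tested. The tissue held more than cartilage: 16 fast and neonatal skeletal muscle markers summed to 35700 to 44580 CPM in *Hbb*-cKO, against 39430 to 63460 CPM in WT, beside 22320 to 69500 and 40630 to 52530 CPM for 17 chondrocyte markers. *Hbb*-cKO replicate 1 had the lowest chondrocyte sum, and the libraries also differed in *Xist* and 4 Y-linked genes. *Hbb*-cKO replicates 1 and 3 and WT replicate 3 held both kinds of RNA, at 57.4, 58.6 and 122 CPM of the Y-linked genes, WT replicates 1 and 2 held *Xist* with no Y-linked count, and *Hbb*-cKO replicate 2 held almost only the Y-linked kind. In such bulk tissue, fewer cells of a type and less RNA per cell cannot be told apart.

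The active site of the family is held by 3 zinc-binding histidines, and the codons of the first 2 lie close enough to be shown together. The 27 coding bases around them are given for each member from the GENCODE M21 transcripts, 5′ to 3′, with the codons at the first and second zinc positions in capitals.
Car1: actcagttcCATtttCACtggggcaac
Car2: atccagtttCACtttCACtggggctca
Car3: cgccaattcCATcttCACtggggctcc
Car13: cggcagttcCATttgCACtgggggtca
Car5b: aagcagtttCATtttCATtggggagcc
Car4: gtacagttgCACctgCACtggtcaaat
Car9: ttgcagttgCATctaCACtggggaact
Car12: gagcagctgCACttgCACtgggggaac
Car14: gcccagctcCACctgCACtggggtcag
Car8: tatgaagttAGAtttCACtggggaaga

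All members but *Car8* kept 3 of 3 zinc histidines, and *Car8* kept 2, with the change H94R, where positions are counted from the first methionine of *Car2*. *Car8* is known as a related protein without the enzyme activity. At the residue that passes protons in *Car2*, position 64, *Car3* carried H64K and *Car5b* carried H64Y. These 2 substitutions are thus in a slow cytosolic isoform and in a mitochondrial one.

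None of the carbonic anhydrases passed the test between *Hbb*-cKO and WT. Of the 10 members, 9 had enough counts to be tested and 0 were called by edgeR (adjusted p from 0.550 to 0.981), against 0.105% of all genes tested, which were 6 that rose and 12 that fell. None had an unadjusted p under 0.05, against 10.1% of all genes, and 0 were called by DESeq2, against 1.16%. The log2 fold changes were positive for 4 and negative for 5 members, with a median of -0.03, and over all genes the median was -0.01 with 47.5% positive. The 95% interval lay inside a 2-fold change either way for 6 of the 9, so the data bound these differences without showing that the levels were equal. The groups did not overlap for 1 member, *Car12*, against 17.7% of all genes in either direction.

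**Figure D1:**
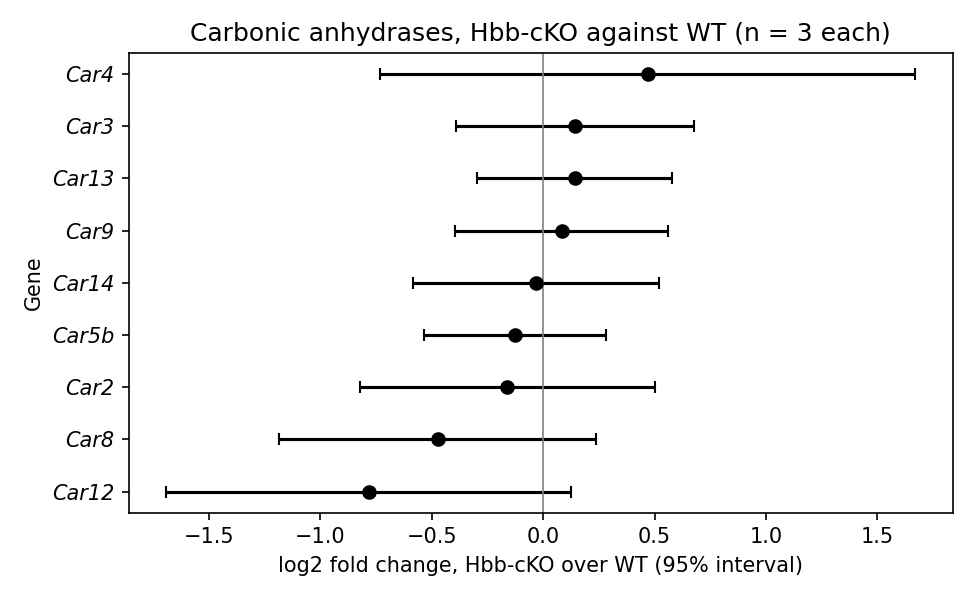
Log2 fold change of *Hbb*-cKO over WT for the 9 tested carbonic anhydrases (points, n = 3 libraries each) with the 95% interval of edgeR's fit (bars). Each interval spans 0, with *Car12* lowest at -0.78 and *Car4* highest at 0.47.

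Between genes, levels were compared as CPM per kb of exon, with the exons of all annotated transcripts of a gene merged. The order below *Car3* depends on that length. For *Car12* it was 7597 bases, against 3716 in the transcript used for its coding sequence, and for *Car5b* 6354 against 3436. By mean CPM without length, *Car12* at 49.9 stood above *Car9* at 17.6. *Car3* stood far above the rest at a mean of 248.7 CPM per kb over the 6 libraries, which was 32.5 times that of the next gene, *Car9*, at 7.64. *Car12* at 6.57, *Car2* at 5.95 and *Car14* at 3.68 CPM per kb followed, and the ranges of neighbours in this order overlapped. *Car13* at 1.73 CPM per kb lay below *Car14* in 6 of 6 libraries without overlap, a ratio of 2.13. *Car5b* at 1.60, *Car8* at 1.21, *Car4* at 0.939 and *Car1* at 0.378 CPM per kb closed the order, again with overlapping ranges between neighbours. *Car3* made up 86.4 to 92.9% of the summed CPM per kb of the 10 genes, and by mean CPM it ranked 123 among the genes tested.

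**Figure D2:**
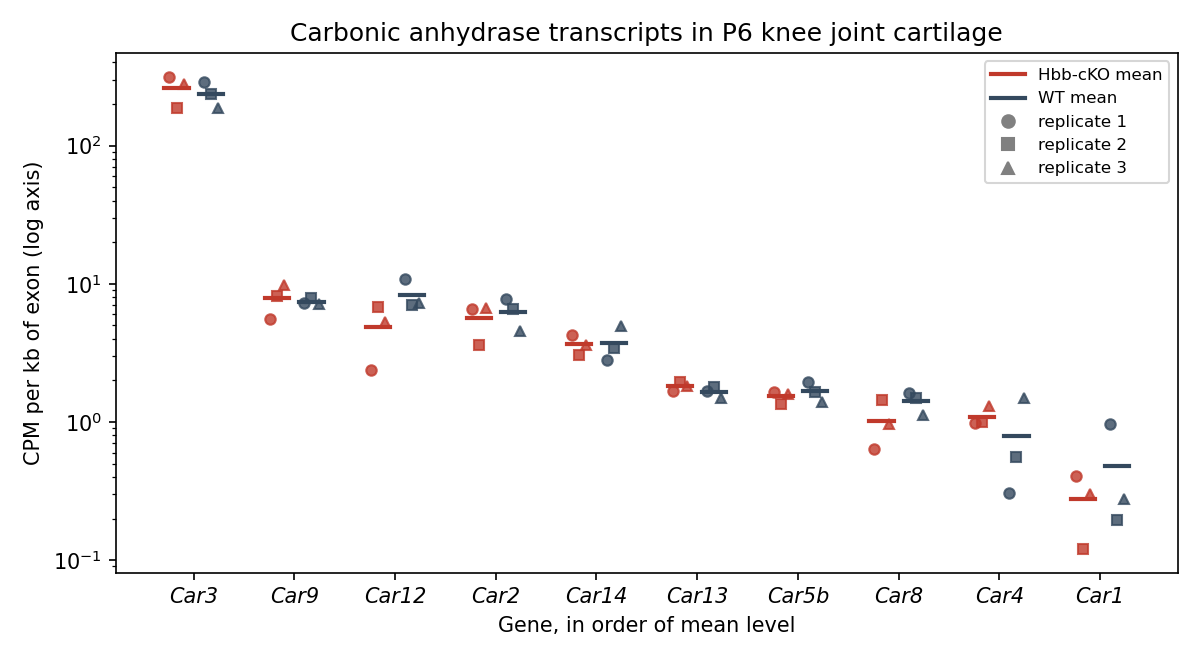
Level of each carbonic anhydrase in CPM per kb of exon on a log axis, with 1 point per library and a line at the mean of each genotype. *Car3* lies above all others in each library, and the *Hbb*-cKO and WT points intermingle for every gene but *Car12*.

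*Car13*, *Car1*, *Car3* and *Car2* encode cytosolic enzymes and lie close together on chromosome 3 of GRCm38, between 14641727 and 14900770. This stretch of 259.0 kb also holds 2 other annotated genes. Their proteins were 56.6 to 64% identical in pairs. The 4 clustered genes were at very unequal levels in this tissue.

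*Car3* (ENSMUSG00000027559, plus strand, 14863512 to 14872523) is the abundant, slow isoform of fat and slow muscle. It was at 904, 536 and 804 CPM in *Hbb*-cKO and at 821, 673 and 539 CPM in WT. Both groups held high and low libraries, and the highest and lowest libraries were both *Hbb*-cKO. The means were 748 ± 110 CPM in *Hbb*-cKO, against 678 ± 81.7 CPM in WT (s.e.m., n = 3 each), which differed by 0.14 on the log2 scale (standard error 0.23, 95% interval -0.39 to 0.68, adjusted p = 0.891 in edgeR).

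The libraries high in *Car3* were those with a high sum of fat cell markers. Per 1000 counts of 13 adipocyte genes, *Car3* had 582, 594 and 560 counts in *Hbb*-cKO and 612, 563 and 548 in WT. The highest of these ratios was 1.12 times the lowest, although *Car3* itself spanned 1.69-fold. The log2 ratio differed by 0.01 between *Hbb*-cKO and WT (standard error 0.05, exact permutation test, two-sided p = 0.9, adjusted p = 1.0 over 7 ratios, where the smallest p that 3 against 3 allows is 0.1). Against slow skeletal muscle genes the same ratio spanned 2.55-fold, and against fast and neonatal muscle genes 2.53-fold. The adipocyte sum rested mostly on *Fabp4*, the fatty acid carrier of fat cells, with 35.1% of it, and *Lpl*, lipoprotein lipase, with 18.1%. Gene by gene, and chosen after the sums were seen, 4 of the 13 adipocyte genes followed *Car3* more closely than its own span, against 14.6% of all genes tested with a count in every library and 0 of the 26 muscle genes. The closest was *Cidec*, a lipid droplet protein, at a span of 1.28, and the farthest was *Retn*, the adipokine resistin, at 5.35. Single markers also went opposite ways within the sum, as WT replicate 3 was lowest in *Adipoq* (28.6 CPM) and highest in *Plin4* (218 CPM). Of the 3 genes most like *Car3* over the 6 libraries, by Pearson's r of log2 CPM among 2277 candidates, *Lipe*, the hormone-sensitive lipase, is a fat cell gene (r = 0.978), and the others were *Clptm1* and *Fam89b*.

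**Figure D3:**
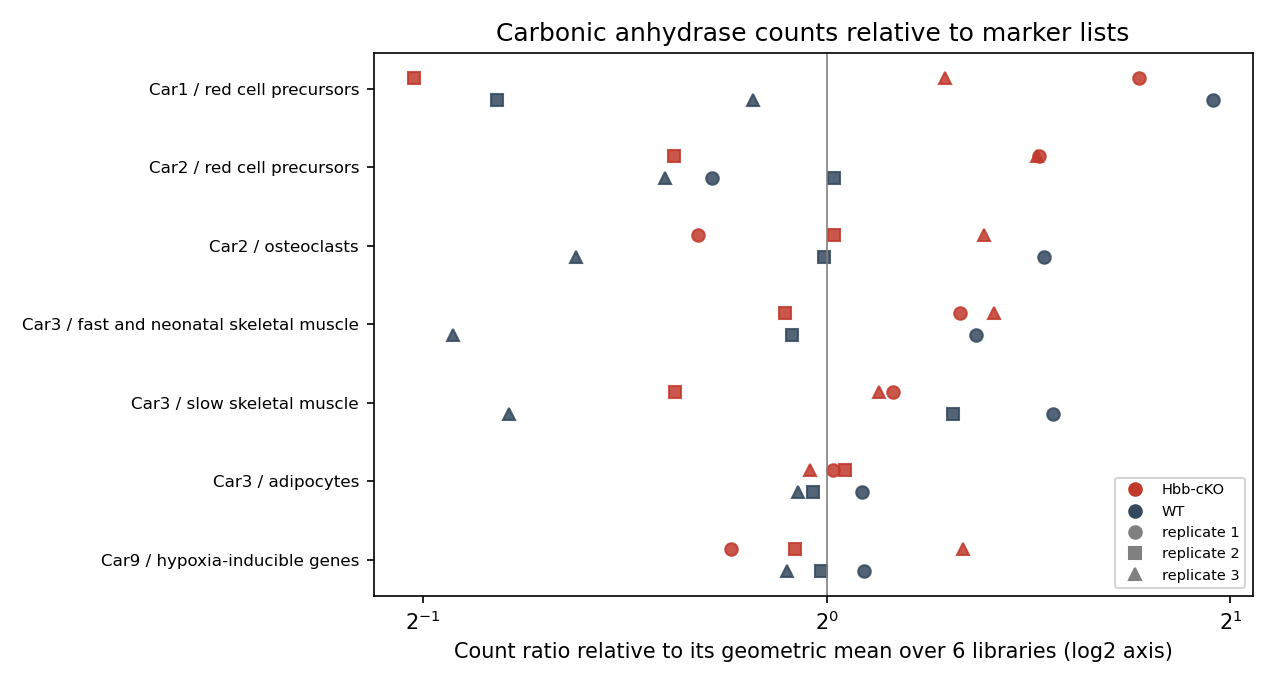
Counts of a carbonic anhydrase relative to the summed counts of a marker list, each divided by the geometric mean of the 6 libraries and drawn on a log2 axis, with 1 point per library. The 6 points of *Car3* over adipocyte genes lie close together, within 1.12-fold, whereas those over the muscle lists span over 2.5-fold.

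*Car2* (ENSMUSG00000027562, plus strand, 14886273 to 14900770) is the fast isoform of osteoclasts and red cells. It was at 15.9, 8.67 and 16.3 CPM in *Hbb*-cKO and at 18.7, 15.99 and 11.0 CPM in WT. The groups overlapped, with the lowest library in *Hbb*-cKO and the highest in WT. *Car2* differed by -0.16 on the log2 scale (standard error 0.29, adjusted p = 0.904 in edgeR). The osteoclast markers, 14 genes led by *Mmp9* and *Ctsk*, summed to 2001, 867 and 1257 CPM in *Hbb*-cKO, against 1302, 1627 and 1706 CPM in WT, and 0 of the 14 were called. *Car2* per 1000 osteoclast counts ran from 7.92 to 12.9 in *Hbb*-cKO and from 6.42 to 14.3 in WT (exact permutation p = 0.9). It therefore spanned 2.23-fold, against 2.16-fold for *Car2* itself. Over the red cell precursor genes, 14 of which were in the table, the ratio ran from 19.8 to 37.0 in *Hbb*-cKO and from 19.5 to 26.0 in WT (exact permutation p = 0.3). The red cell sum was 428 to 441 CPM in *Hbb*-cKO, against 562 to 884 CPM in WT without overlap, with 0 of 14 genes called, and its part in the *Car2* values was not tested. The difference in the sum lay mostly in *Alas2*, the erythroid enzyme of haem synthesis, at 105 ± 4.91 CPM in *Hbb*-cKO, against 317 ± 87.2 CPM in WT (s.e.m., n = 3 each). Of the 14 genes, 8 had positive and 6 negative log2 fold changes, with a median of 0.03, and *Hemgn* (2.11), *Rhag* (1.57) and *Klf1* (1.15) lay on the positive side without passing the test.

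*Car2* was also set against its neighbour *Car3*, after their values were seen. Per 1000 *Car3* counts there were 17.5, 16.2 and 20.25 *Car2* counts in *Hbb*-cKO and 22.8, 23.8 and 20.35 in WT. Replicate 3 of both genotypes, with 345 and 190 *Car2* counts, lay too close to be ordered, so the groups were not clearly apart. The ratio spanned 1.47-fold over the 6 libraries, and the share of other ratios without overlap was not computed.

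*Car1* (ENSMUSG00000027556, minus strand, 14766216 to 14808368) is known as a red cell enzyme. Its raw counts were 9, 3 and 8 in *Hbb*-cKO and 20, 4 and 6 in WT. These counts were too few for the test, and a change was not detectable at this depth. With no filter on counts the log2 fold change was -0.77 (adjusted p = 0.761 in edgeR). Of its 50-base windows, 14.5% also occur in the predicted gene *Gm5843*, which had 0 counts in every library.

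*Car13* (ENSMUSG00000027555, plus strand, 14641727 to 14663002) is a further cytosolic enzyme. It was at 3.86, 4.51 and 4.15 CPM in *Hbb*-cKO and at 3.83, 4.13 and 3.40 CPM in WT. It was the steadiest member, with a span of 1.33-fold over the libraries. On the log2 scale it differed by 0.14 (standard error 0.19, 95% interval -0.30 to 0.58, adjusted p = 0.860 in edgeR).

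*Car12*, *Car9*, *Car14* and *Car4* encode enzymes on the cell surface, the first 3 with a transmembrane segment and *Car4* with a lipid anchor. *Car12* (ENSMUSG00000032373) spans bases 66713686 to 66766845 of chromosome 9, plus strand. It was at 18.2, 51.8 and 40.0 CPM in *Hbb*-cKO and at 81.8, 52.9 and 54.7 CPM in WT. No *Hbb*-cKO library reached the lowest WT library, though replicate 2 of both genotypes were nearly level, and 8.96% of all genes showed this order. The means were 36.7 ± 9.85 CPM in *Hbb*-cKO, against 63.1 ± 9.35 CPM in WT (s.e.m., n = 3 each), a ratio of 0.581. The log2 fold change of -0.78 (standard error 0.38, 95% interval -1.69 to 0.13) did not pass the test (unadjusted p = 0.0806, adjusted p = 0.550 in edgeR). Leaving out 1 library gave -1.12 without *Hbb*-cKO replicate 2 to -0.45 without *Hbb*-cKO replicate 1, with -0.54 without WT replicate 1 and -0.88 to -0.84 for the other libraries. *Car12* spanned 4.50-fold over the libraries, and 1.81% of the 10648 genes with a mean CPM of at least 10 spanned as much.

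The same *Hbb*-cKO replicate 1 was lowest in chondrocyte markers, which summed to 22320, 69500 and 50820 CPM in *Hbb*-cKO, against 47950, 52530 and 40630 CPM in WT. After these values were seen, *Car12* was expressed per 1000 chondrocyte counts, which gave 0.815, 0.746 and 0.786 in *Hbb*-cKO and 1.71, 1.01 and 1.35 in WT. The *Hbb*-cKO libraries were alike on this scale, which they were not in CPM. They did not overlap with WT on this scale, and the lack of overlap was already so in CPM. The chondrocyte sum was mostly *Col2a1*, at a mean of 25940 CPM. The share of all genes without overlap on this scale was not computed. The ratio was chosen with the *Car12* values known and was therefore not tested. The genes most like *Car12* were *Moxd1*, a monooxygenase-related gene, *Zfp385b* and *Trim39*, with r of 0.973 to 0.977 over 6 libraries.

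**Figure D4:**
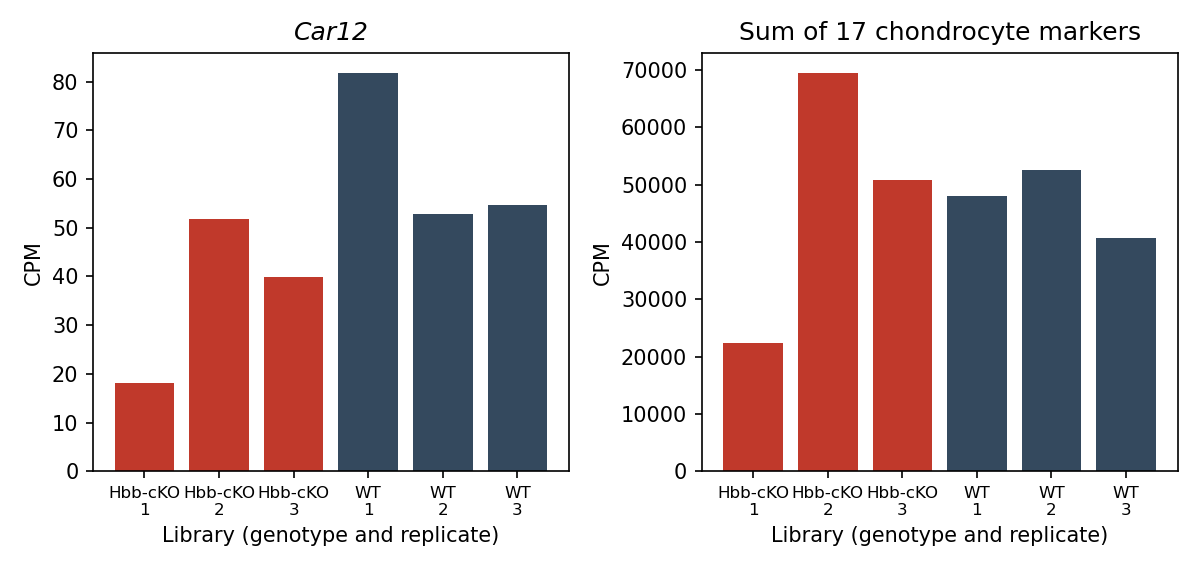
CPM of *Car12* (left) and summed CPM of 17 chondrocyte markers (right), with 1 bar per library. *Hbb*-cKO replicate 1 is lowest in both, at 18.2 and 22320 CPM, whereas *Hbb*-cKO replicate 2 is highest in the markers but not in *Car12*.

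*Car9* (ENSMUSG00000028463) spans bases 43506966 to 43513729 of chromosome 4, plus strand and is a textbook target of hypoxia-inducible factor. The bases just before its RefSeq start, from the RefSeq promoter table on GRCm38.p6 and within the span of the GENCODE gene, hold the core letters of the hypoxia response element, in capitals, on the opposite strand.
Car9 chr4:43506996-43507025 (+): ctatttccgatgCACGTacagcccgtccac
The core, ACGTG or GCGTG on either strand, was searched in the 250 bases upstream of the 5 members in that table. It occurred 1 time before *Car9*, 1 time before *Car14* and 5 times before *Car5b*, and did not occur before *Car12* or *Car4*. Of 32851 promoters of that length, 38.6% held it, so a match is a description only.

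*Car9* was at 12.7, 18.9 and 22.7 CPM in *Hbb*-cKO and at 16.8, 18.1 and 16.5 CPM in WT. The WT libraries lay within the wider *Hbb*-cKO range. The log2 fold change was 0.08 (standard error 0.21, 95% interval -0.40 to 0.56, adjusted p = 0.935 in edgeR). The 20 hypoxia-inducible genes fixed as a list, led by *Ldha*, *P4ha1* and *Pgk1*, had 0 called, 10 positive and 10 negative, and a median log2 fold change of -0.003. Their sum was 1776 to 2363 CPM in *Hbb*-cKO, against 1862 to 2159 CPM in WT. Each name was read from its first row alone, and *Aldoa* entered at a mean of only 1.90 CPM. The order and the sum thus leave out any further row of that name. *Car9* per 1000 of these counts was 7.17, 7.996 and 10.7 in *Hbb*-cKO and 9.01, 8.37 and 7.89 in WT (exact permutation p = 0.9). Exons of *Car9* overlap the antisense gene *Gm12454* by 214 bases, and since the strand setting is not given, reads of the pair cannot be told apart there, but that gene had only 16 to 32 counts.

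*Car14* (ENSMUSG00000038526) spans bases 95897768 to 95904691 of chromosome 3, minus strand, away from the cytosolic cluster. It was at 10.9, 7.72 and 9.15 CPM in *Hbb*-cKO and at 7.13, 8.76 and 12.5 CPM in WT. The highest and lowest libraries were both WT. Its log2 fold change was -0.03 (standard error 0.24, adjusted p = 0.981 in edgeR), which was the smallest among the members. The genes most like it were *Fhl1*, a LIM protein of muscle (r = 0.958), *Gtf2ird2* (r = 0.942) and *Iba57* (r = 0.941). WT replicate 3, highest in *Car14*, also had the highest muscle sum, and a part of muscle in the *Car14* values was not tested. Its exons overlap *Aph1a* on the other strand by 445 bases, a gene at 39.3 to 46.0 CPM, so part of the *Car14* count may be shared.

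*Car4* (ENSMUSG00000000805) spans bases 84957786 to 84966044 of chromosome 11, plus strand and is known from capillary endothelium. It was at 1.93, 1.95 and 2.55 CPM in *Hbb*-cKO and at 0.599, 1.09 and 2.94 CPM in WT. The *Hbb*-cKO libraries were alike, and WT held both the lowest and the highest. The log2 fold change was 0.47 (standard error 0.52, 95% interval -0.73 to 1.67, adjusted p = 0.823 in edgeR), the widest interval of the family at 10 to 54 counts a library. Without WT replicate 3 it was 1.34 and without WT replicate 1 it was 0.09, and neither passed the test. The 11 endothelial markers summed to 912 to 1051 CPM in *Hbb*-cKO, against 716 to 867 CPM in WT without overlap, with 0 of 11 called, and their part in the *Car4* values was not tested. WT replicate 3 had the lowest endothelial sum and the highest *Car4*.

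*Car5b* (ENSMUSG00000031373), the mitochondrial member, spans bases 163976822 to 164027997 of the X chromosome, minus strand. It was at 10.5, 8.52 and 10.2 CPM in *Hbb*-cKO and at 12.5, 10.5 and 8.88 CPM in WT. The groups overlapped over most of their range. Its log2 fold change was -0.13 (standard error 0.18, 95% interval -0.54 to 0.28, adjusted p = 0.868 in edgeR).

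The order of the libraries in *Car5b* was close to that in *Xist*, the RNA of the inactive X chromosome. *Xist* was at 287, 0.301 and 381 CPM in *Hbb*-cKO and at 625, 531 and 157 CPM in WT, so that the libraries were not alike in this marker of female cells. The orders of *Car5b* and *Xist* differed only by a swap of *Hbb*-cKO replicates 1 and 3. The autosomal *Car2* was ordered much like *Xist* too, with a swap of WT replicate 2 and *Hbb*-cKO replicate 3, so the order was not particular to the X-linked gene. These orders were noticed in the values and are therefore given as a description, with no test. With a covariate for Y-linked expression beside genotype, the log2 fold change of *Car5b* was 0.12 and that of *Car2* 0.31, and neither passed the test.

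**Figure D5:**
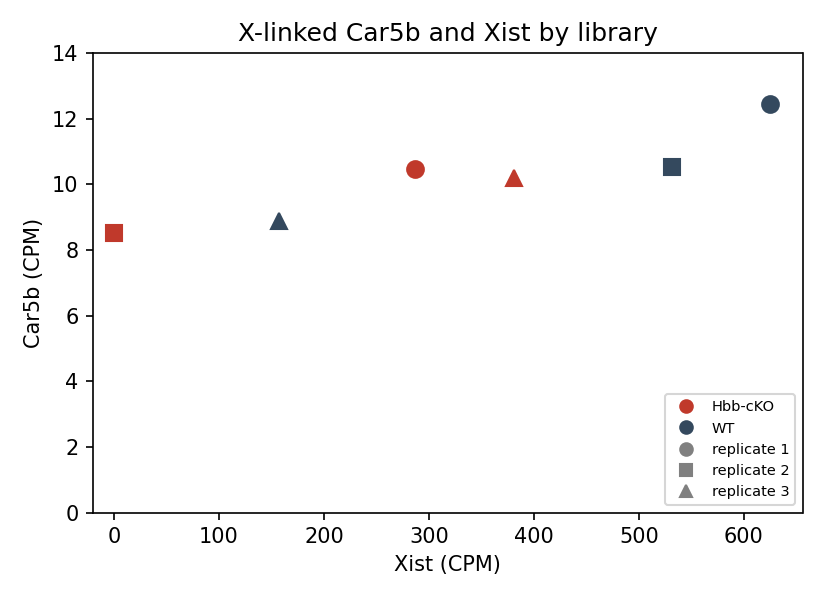
CPM of *Car5b* against CPM of *Xist*, with 1 point per library, coloured by genotype. The libraries low in *Xist*, *Hbb*-cKO replicate 2 and WT replicate 3, are also lowest in *Car5b*, at 8.52 and 8.88 CPM.

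*Car8* (ENSMUSG00000041261) spans bases 8143362 to 8239041 of chromosome 4, minus strand. It was at 2.44, 5.51 and 3.73 CPM in *Hbb*-cKO and at 6.23, 5.72 and 4.33 CPM in WT. The 2 lowest libraries were *Hbb*-cKO, and replicate 2 of that group lay within the WT range. On the log2 scale *Car8* differed by -0.47 (standard error 0.31, 95% interval -1.18 to 0.24, adjusted p = 0.659 in edgeR). The gene most like it was *Pcolce2*, an enhancer of procollagen processing (r = 0.992), followed by the transcription factors *Etv1* and *Trps1*.

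The rest of the family gave no call either. *Car5a*, *Car7*, *Car11* and *Car15* were tested with 0 called, 1 positive and 3 negative, and a median log2 fold change of -0.44, and *Car6* and *Car10* had too few counts. Of 13 transporters that move bicarbonate, protons and lactate, 11 were tested and 0 were called, with 2 positive and 9 negative. Their sum was 845 to 859 CPM in *Hbb*-cKO, against 904 to 1064 CPM in WT without overlap. It was led by *Bsg*, the partner protein of the lactate carriers, and *Slc16a3*, the lactate exporter, which were at 385 ± 14.6 and 169 ± 15.6 CPM in *Hbb*-cKO and at 446 ± 65.1 and 209 ± 25.0 CPM in WT (s.e.m., n = 3 each), with overlapping groups for both genes.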

How the data were processed

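Gene counts were deposited by the authors as 1 table of whole numbers, not normalised, for poly(A) RNA of 3 *Hbb*-cKO and 3 WT libraries. Tools in the submitters' processing notes are HISAT2 2.1.0, StringTie, fastp 0.19.5, CASAVA 1.8 and edgeR. The build and the strand setting were not given in the sources used here, and 99.4% of the 55227 identifiers found in GENCODE M21 on GRCm38 had equal positions.

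Genotype in the labels set the groups. Genes were kept by the edgeR filter (minimum count 10, minimum total 15), scaled by TMM and compared by the quasi-likelihood test with robust estimation in edgeR 4.0.16 on R 4.3.3, at an adjusted p of 0.05. DESeq2 1.42.0 was an alternative. Log2 CPM used a prior count of 2. The test was checked on simulated counts. The 7 ratios of a member to the summed counts of a marker list used exact permutation tests. The ratios added after values were seen were not tested.

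Members, marker lists and tests were chosen with earlier results of these data known. All members were named, and for each member whose mean log2 CPM was 0 or more, the 3 genes most like it were found, of which the text names some. For *Car2* these were *Pogk*, *Tmem87a* and *Cx3cr1*, and for *Car9* *Adal*, *Cbx3* and *Tcfl5*, none of them in the marker lists. The best r ran from 0.922 for *Car9* to 0.992 for *Car8*, so a high r was common to all members. The comparisons of *Car12* with chondrocyte counts, of *Car2* with *Car3*, of *Car3* with single genes and of *Car5b* with *Xist* were added after values were seen. Protein identities and substitutions came from translated GENCODE M21 transcripts aligned in pairs. No amino-acid sequence is printed. Total counts of 16544800 to 20969914 limit the precision of low genes such as *Car1*.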

Additional observations from a re-analysis of the deposited data

How the results depend on the processing

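No carbonic anhydrase was called under any of the alternatives run, and *Car8*, *Car12* and *Car13* kept the sign of their difference in all 14. The 18 genes called over the whole table became 41 at an adjusted p under 0.1, 236 with DESeq2, 60 with no low-count filter, 48 with a covariate for Y-linked expression, 4 with the replicate block and 1 to 39 when 1 library was left out. The deviations of same-numbered libraries correlated at -0.03, -0.11 and -0.03, and those of different-numbered libraries at -0.07 to 0.10. Pairing by number was thus not seen, and a shared litter or batch was not tested.

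Of the 9 members tested, 6 changed sign under at least 1 alternative. With the Y-linked covariate the log2 fold change was 0.31 for *Car2*, -0.23 for *Car4* and 0.12 for *Car5b*. Leaving out 1 library gave -0.35 to 0.0802 for *Car2*, -0.0109 to 0.33 for *Car3*, -0.24 to 0.00968 for *Car5b*, -0.11 to 0.29 for *Car9* and -0.20 to 0.22 for *Car14*, and 0.09 to 1.34 for *Car4*, which kept its sign there. The cause of these changes was not tested, and none of the values passed the test.

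None of the 7 differences in log2 ratio to marker lists could pass an exact test. All but that of *Car3* to fast and neonatal skeletal muscle changed sign under at least 1 alternative. With the mean log2 CPM of the list in place of its sum, the difference was -0.53 for *Car1* and -0.23 for *Car2* over red cell precursors. Leaving out 1 library gave -0.37 to 0.55 for *Car1* to red cell precursors, -0.24 to 0.34 for *Car2* to osteoclasts, -0.46 to 0.21 for *Car3* to slow skeletal muscle, -0.0200 to 0.0589 for *Car3* to adipocytes and -0.15 to 0.14 for *Car9* to hypoxia-inducible genes. The difference between genotypes in the log2 ratio of *Car3* to adipocyte genes thus stayed near 0 throughout. The span of that ratio over the libraries was not computed under the alternatives. Depth limits *Car1*, and *Car4* has the least certain difference of the members tested.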
